A study of Mus musculus with 5 samples.

Results

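The genes described here are 10 secreted mediators of the inflammatory and blood-forming systems: Il6, Lif, Tslp, Csf1, Csf2, Csf3, Il24, Il34, Tnf and Saa3. They were taken by symbol from the deposited table, which lists 17657 genes, and all 10 were found. Their levels were compared between cultured epidermal stem cells labelled Angptl4 knockout (KO, 2 libraries, KO1 and KO2) and wild-type cells (WT, 3 libraries, WT1, WT2 and WT3). Epidermal stem cells are the keratinocyte progenitors that renew the epidermis and hair follicle. Angptl4 encodes a secreted protein best known for inhibiting lipoprotein lipase. The cells came from the skin of male C57BL/6 mice with a time label of 8 weeks, and both groups were grown in KGM2, a keratinocyte growth medium. The labels give neither the knockout allele nor the cells it affects, and they do not say whether the libraries of a group are separate mice or cultures. The p-values below therefore measure only the spread between these libraries, which may be technical.

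Each library held between 20283084 and 20773407 expected counts, which are read counts estimated per gene. Angptl4 itself was at 0.86 and 1.11 TPM in KO1 and KO2, against 7.34, 6.09 and 4.34 TPM in WT1, WT2 and WT3 (log2 change -2.56 ± 0.32, SE, adjusted p = 0.00458 by edgeR, and 0.127 if each group has its own spread). It was thus still detected in both KO libraries, with 17 and 22 counts. TPM is a level corrected for transcript length and scaled to the same total in each library. The KO libraries differed from each other far more than the WT libraries did, with a biological coefficient of variation of 28.8% among KO and 5.21% among WT libraries. The basal keratins Krt5 and Krt14 were abundant in every library, at 16275 to 21857 TPM in KO and 15052 to 17920 TPM in WT. The pan-leukocyte gene Ptprc was at 0 and 0.04 TPM in KO1 and KO2 and at 0.02 to 0.06 TPM in the WT libraries.

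Keratinocytes secrete cytokines that call in and instruct immune cells of the skin. TSLP acts on dendritic cells and type 2 lymphocytes. The colony-stimulating factors CSF1, CSF2 and CSF3 drive the growth of macrophages, granulocytes and macrophages, and neutrophils. IL-34 shares the CSF1 receptor and maintains Langerhans cells, the resident macrophage-like cells of the epidermis. IL-24 belongs to the IL-20 group of epithelial cytokines, while IL-6 and LIF signal through the shared chain gp130. TNF is a general inflammatory trigger, and SAA3 is an acute phase protein. Many of these mRNAs are short-lived because AU-rich elements in their 3′ untranslated region (3′ UTR), built from the pentamer ATTTA, bind proteins that recruit decay enzymes.

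The 30 bases richest in ATTTA are shown for 6 of the genes, which range from 5 pentamers (Csf2 and Tnf) to 1 (Il24). Of the genes not shown, Il6 held 2 in its richest 30 bases, and Tslp, Il34 and Saa3 held 1. The windows were read from the longest annotated 3′ UTR of each gene in GENCODE M21, 5′ to 3′ with T for U, and capitals mark ATTTA.
Csf2 (GRCm38 chr11:54247329-54247358, minus strand, bases 230 to 259 of a 3′ UTR of 317 bases): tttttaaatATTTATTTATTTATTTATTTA
Tnf (GRCm38 chr17:35199679-35199708, minus strand, bases 437 to 466 of a 3′ UTR of 764 bases): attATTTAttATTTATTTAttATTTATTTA
Csf3 (GRCm38 chr11:98702984-98703013, plus strand, bases 24 to 53 of a 3′ UTR of 669 bases): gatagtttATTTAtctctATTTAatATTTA
Lif (GRCm38 chr11:4272414-4272443, plus strand, bases 3080 to 3109 of a 3′ UTR of 3180 bases): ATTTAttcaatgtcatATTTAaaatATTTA
Csf1 (GRCm38 chr3:107741109-107741138, minus strand, bases 2021 to 2050 of a 3′ UTR of 2111 bases): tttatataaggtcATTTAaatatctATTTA
Il24 (GRCm38 chr1:130882244-130882273, minus strand, bases 182 to 211 of a 3′ UTR of 381 bases): actgacccacaaagtagatttgcatATTTA
Csf2 and Tnf each packed 5 ATTTA pentamers into 30 bases, which 0.239% of 15924 genes of the table with a 3′ UTR of at least 100 bases did. Csf3 and Lif held 3 in 30 bases, so that 4 of the 10 genes reached a density found in 2.47% of those genes. The longer element TTATTTATT occurred 5 times in the 3′ UTR of Tnf, 4 times in that of Csf2 and 2 times in that of Lif. It was found in 8.04% of the same 15924 genes. Over the whole 3′ UTR, Csf2 had 28.4 pentamers per kb, Il24 and Tnf 10.5, Csf3 8.97 and Il6 6.0, against a median of 1.29 per kb over all those genes. Tslp, Lif, Csf1, Il34 and Saa3 had 2.92, 2.2, 1.89, 1.65 and 1.53 per kb. A match describes the letters only and says nothing of which protein binds there.

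**Figure D1:**
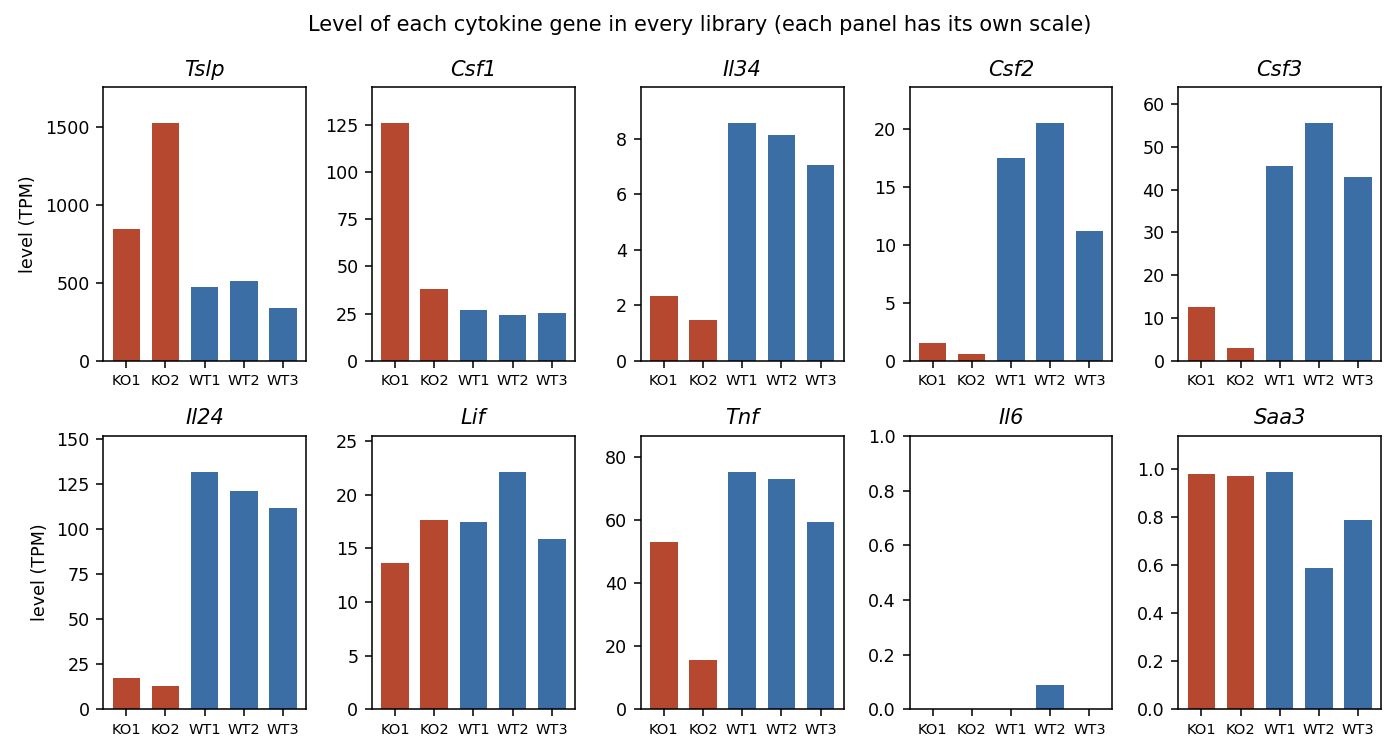
Level of the 10 genes in TPM (bars, linear axes from 0, each panel on its own scale) in KO1 and KO2 (red) and WT1, WT2 and WT3 (blue). Tslp and Csf1 are higher in both KO libraries than in any WT library, Il34, Csf2, Csf3, Il24 and Tnf are lower in both, Lif and Saa3 overlap, and Il6 is close to 0.

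Tslp was the most abundant of the 10 genes in every library, and its margin was wider in the KO cells. In KO the order by mean TPM was Tslp (1184), Csf1 (81.9), Tnf (34.4), Lif (15.6), Il24 (15.2), Csf3 (7.84), Il34 (1.92), Csf2 (1.06), Saa3 (0.975) and Il6 (0). The KO ranges of Csf1, Tnf, Lif and Il24 overlapped from each gene to the next, as did those of Il34, Csf2 and Saa3. In WT it was Tslp (442), Il24 (122), Tnf (69.3), Csf3 (48.0), Csf1 (25.5), Lif (18.5), Csf2 (16.4), Il34 (7.92), Saa3 (0.79) and Il6 (0.03), and only the neighbours Lif and Csf2 overlapped in range. Tslp made up 78.8% and 94.4% of the summed TPM of the 10 genes in KO1 and KO2, against 59.4%, 61.2% and 55.1% in WT1, WT2 and WT3. Without Tslp the sum was 228 and 90.1 TPM in KO1 and KO2, against 324, 326 and 274 TPM in the WT libraries.

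Enough counts for a test were found for 8 of the genes, and 6 of these 8 (75%) changed at an adjusted p under 0.05, where 40.8% of all 12957 tested genes did. Tslp and Csf1 rose, which is 2 of 8, beside 20.4% of all tested genes that rose. Csf2, Csf3, Il24 and Il34 fell, which is 4 of 8, beside 20.4% of all tested genes that fell. Lif and Tnf did not pass, and Il6 and Saa3 were too low to test. For 7 of the 8 tested genes every KO library lay on the same side of all WT libraries, as was so for 66.4% of all tested genes. The median log2 change (KO over WT) of the 8 was -1.51, beside 0.02 over all tested genes. All changes are from edgeR's quasi-likelihood test on the counts with Benjamini-Hochberg adjustment over all tested genes, and errors are standard errors (SE). In bulk libraries a smaller share of producing cells and less RNA per cell cannot be told apart.

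**Figure D2:**
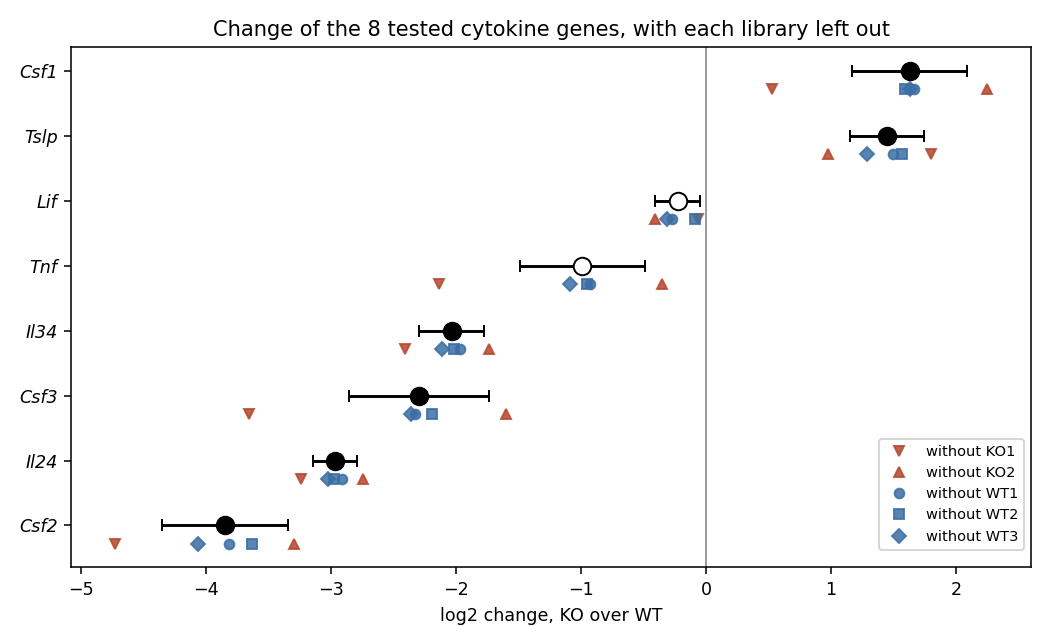
Log2 change (KO over WT) of the 8 tested genes from edgeR's fit of all 5 libraries, with its SE (circles, filled where the adjusted p was under 0.05), and below each the value with 1 library left out. Csf1 runs from 0.53 without KO1 to 2.25 without KO2, while Il24 stays between -3.24 and -2.74.

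Tslp rose 2.72-fold in the KO cells. It was at 845 and 1523 TPM in KO1 and KO2, against 474, 514 and 337 TPM in WT1, WT2 and WT3. Both KO libraries lay above every WT library, and KO2 was the higher of the pair. The log2 change was 1.44 ± 0.29 (SE; adjusted p = 0.0158), resting on 27446 counts in KO and 15129 in WT. Its TPM lay above that of 99.0% and 99.4% of the genes of the table in KO1 and KO2, and above 97.4 to 98.4% in the WT libraries. With WT1, WT2 or WT3 removed, Tslp missed the threshold (adjusted p = 0.0655, 0.0522 and 0.0609) with log2 changes of 1.28 to 1.56, while the change was 1.80 with KO1 removed and 0.97 with KO2 removed. It also missed it where KO and WT were each given their own spread (adjusted p = 0.0561; lowest and highest over 16 alternatives 2.2e-05 and 0.0655). Its gene lies on GRCm38.p6 chromosome 18 from 32815383 to 32819799 (plus strand, NCBI gene 53603), and overlaps the minus-strand lincRNA 4930455D15Rik, whose reads cannot be told from those of Tslp if strand was not used in counting.

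The TSLP receptor pairs the ligand-binding chain Crlf2 with the IL-7 receptor chain Il7r. Crlf2 rose by 0.47 ± 0.11 (SE; adjusted p = 0.0232), to 26.7 and 31.1 TPM in KO1 and KO2, against 21.3, 19.3 and 22.3 TPM in the WT libraries. Il7r was at 0.03 TPM in both KO libraries and at 0 to 0.06 TPM in WT, too low to test, so the partner chain was close to undetected in either group. Crlf2 passed in 11 of its 16 alternatives (adjusted p 0.003 to 0.124) and missed the threshold with WT1, WT2 or WT3 removed (adjusted p = 0.0967, 0.0933 and 0.0653).

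The CSF1 receptor has 2 ligands, and they moved in opposite directions. Csf1 was at 126 and 37.9 TPM in KO1 and KO2, against 27.0, 24.2 and 25.3 TPM in WT1, WT2 and WT3. Both KO libraries exceeded all WT libraries, but KO1 was 3.32 times KO2, whereas the highest WT library was 1.12 times the lowest. The log2 change was 1.63 ± 0.46 (SE; adjusted p = 0.0392), a 3.09-fold rise, and it was 0.53 without KO1 and 2.25 without KO2. This call was the least stable of the 6, being lost in 8 of 16 alternatives. Among them were limma-voom (adjusted p = 0.0703) and the fits with WT1, WT2 or WT3 removed (adjusted p = 0.118, 0.124 and 0.122, with 0.124 the highest over all alternatives). The fits that kept the call include those without a KO library. The summed TPM of 10 fibroblast markers was also higher in KO1 (154) than in KO2 (80.2), against 62.4 to 71.0 in the WT libraries, and its part in the Csf1 values was not tested.

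Il34 fell to 2.34 and 1.49 TPM in KO1 and KO2, against 8.57, 8.13 and 7.05 TPM in WT1, WT2 and WT3. Both KO libraries lay below all WT libraries, and the WT libraries lay close together. The log2 change of -2.04 ± 0.26 (SE; adjusted p = 0.00462) is a level 4.10-fold lower in KO, from 69 counts in KO and 427 in WT, and it passed in all 16 alternatives (adjusted p 2.3e-09 to 0.0353). Set side by side within a library, Csf1 was 53.8 and 25.4 times the TPM of Il34 in KO1 and KO2, against 3.15, 2.98 and 3.58 times in the WT libraries. The receptor Csf1r, a gene of macrophages, was at 0.59 and 0.19 TPM in KO1 and KO2 and at 0.32, 0.27 and 0 TPM in the WT libraries. Of the other known binding partners of IL-34, the phosphatase receptor Ptprz1 was at 6.46 and 11.2 TPM in KO and 9.81 to 10.4 TPM in WT. The syndecan Sdc1 was at 1182 and 850 TPM in KO and 1146 to 1190 TPM in WT. None of these 3 passed the test (adjusted p = 0.468, 0.542 and 0.403).

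The 300 bases around the Csf1 start are shown because they hold a kappaB motif, the sequence that NF-kappaB is known to bind. The sequence is RefSeq's on GRCm38.p6 (chr3:107760420-107760719, minus strand), from 250 bases before to 50 after the start, with the kappaB match in capitals.
Csf1 promoter: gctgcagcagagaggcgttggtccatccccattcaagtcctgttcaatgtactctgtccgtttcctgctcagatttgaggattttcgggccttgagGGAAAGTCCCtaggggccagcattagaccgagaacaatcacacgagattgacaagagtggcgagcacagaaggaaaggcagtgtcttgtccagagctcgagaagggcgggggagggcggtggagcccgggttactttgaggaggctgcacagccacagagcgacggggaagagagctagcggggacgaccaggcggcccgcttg
The match begins 154 bases before the start. The promoter table held 6 of the 10 genes (Csf1, Il6, Saa3, Lif, Csf2 and Tnf). Il6 had the other kappaB match, beginning 44 bases before its start, and 4.51% of 32851 promoter windows in the table held one on either strand. Il6 and Lif also held the AP-1 motif TGANTCA (7.81% of windows), and Il6, Saa3 and Csf2 the C/EBP motif TTGCNNAA (10.8%). The STAT motif TTCNNNGAA (8.3%) was found in none of the 6 windows. Motifs were searched on both strands except for TATAAA, searched on the gene's strand, which Tnf and 8.32% of windows held. The Csf2 window lies upstream of the start that GENCODE gives for this gene, so it does not cover the bases next to that start. The Saa3 window (chr7:46715627-46715926, minus strand) lies inside the gene, which runs from 46711998 to 46719615 in RefSeq. Its C/EBP match thus lies before an internal start, not the outermost one.

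Csf2, which encodes GM-CSF, had the largest change of the 10 genes. It fell to 1.53 and 0.60 TPM in KO1 and KO2, against 17.5, 20.6 and 11.2 TPM in WT1, WT2 and WT3. Every WT library stood far above both KO libraries. The log2 change was -3.85 ± 0.51 (SE; adjusted p = 0.00498), a level 14.4-fold lower in KO. The KO level rests on 16 and 6 counts, 22 in all, against 483 in WT, so few counts carry the KO level. With 1 KO library, the log2 change was -4.73 with KO1 removed and -3.30 with KO2 removed. Only where KO and WT were each given their own spread did Csf2 miss the threshold (adjusted p = 0.153, against 1.1e-11 at the lowest of its 16 alternatives).

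The deposited model of Csf2 is wider than the gene. It runs on GRCm38.p6 chromosome 11 from 54213428 to 54263733 and is marked plus strand, while RefSeq places the gene on the same build from 54247270 to 54249899, and GENCODE on the minus strand. Of its 5 transcripts 3 are not RefSeq entries, and GENCODE lists an antisense RNA, Gm12223, across the gene. Il34 is also marked plus strand (chromosome 8, 110741829 to 110807478) against minus in GENCODE, 6 of its 16 transcripts are not RefSeq entries, and the antisense RNAs Gm15894 and Gm15895 overlap it. The labels do not say whether counting used strand, so how many of the counts of these 2 genes came from antisense RNA was not tested. The other 8 genes had the same start and end as in RefSeq.

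The third colony-stimulating factor, Csf3 (G-CSF), also fell. It was at 12.6 and 3.09 TPM in KO1 and KO2, against 45.4, 55.6 and 42.9 TPM in WT1, WT2 and WT3. Neither KO library reached the lowest WT library, and KO1 was 4.07 times KO2. The log2 change was -2.30 ± 0.56 (SE; adjusted p = 0.0262), which is 4.91-fold lower by counts, while the mean TPM was 6.12-fold lower. Csf3 had more counts per TPM in KO, 0.627 and 0.623 of the library's median gene in KO1 and KO2, against 0.516, 0.507 and 0.518 in the WT libraries, a ratio that grows with the transcript length assigned to a gene. The other tested genes with enough counts differed less between the groups on this measure. The log2 change was -3.66 with KO1 removed and -1.6 with KO2 removed. Csf3 did not pass with WT1, WT2 or WT3 removed (adjusted p = 0.0844, 0.0876 and 0.0799), and 0.0876 was its highest adjusted p over all alternatives.

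Of the receptors for these 2 factors, the ligand-binding chain of the GM-CSF receptor had the highest TPM. Csf2ra rose by 0.47 ± 0.09 (SE; adjusted p = 0.0136), to 16.4 and 15.7 TPM in KO1 and KO2, against 11.0, 10.6 and 10.8 TPM in the WT libraries. It missed the threshold with WT1, WT2 or WT3 removed (adjusted p = 0.0778, 0.0709 and 0.0534; lowest and highest over its alternatives 0.00209 and 0.12). Its signalling partners Csf2rb and Csf2rb2 reached at most 0.26 TPM in KO and 0.19 TPM in WT and were not tested. The G-CSF receptor Csf3r was at 0.42 and 0.53 TPM in KO and 0.40 to 0.81 TPM in WT (adjusted p = 0.925).

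Il24 was the second most abundant of the 10 genes in WT and the fifth in KO. It fell to 17.7 and 12.8 TPM in KO1 and KO2, against 132, 121 and 112 TPM in WT1, WT2 and WT3. The gap between the groups was wide beside the spread within either. The log2 change of -2.97 ± 0.18 (SE; adjusted p = 0.00128) is a level 7.86-fold lower in KO, from 347 counts in KO and 4103 in WT. It passed in all 16 alternatives, with log2 changes of -3.24 to -2.74 and adjusted p of 1.5e-46 to 0.0217. Il24 lies on chromosome 1 (130882074 to 130887411, minus strand) beside its relatives Il20 and Il19, which were at 0 to 0.12 TPM in KO and 0 to 0.24 TPM in WT.

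IL-24 signals through IL-20RB paired with IL-20RA or IL-22RA1. The shared chain Il20rb rose by 1.05 ± 0.24 (SE; adjusted p = 0.0212), to 14.6 and 8.83 TPM in KO1 and KO2, against 5.17, 5.82 and 6.24 TPM in the WT libraries. With WT1, WT2 or WT3 removed it missed the threshold (adjusted p = 0.0876, 0.0795 and 0.0698), and with KO1 removed the change was 0.63. Its partner Il20ra fell by 2.02 ± 0.52 on the log2 scale (adjusted p = 0.0295), to 0.29 and 0.09 TPM, against 0.57, 0.83 and 0.53 TPM in WT, and passed in 7 of 14 alternatives (adjusted p 0.0159 to 0.242), not with KO2, WT1, WT2 or WT3 removed (adjusted p = 0.0692, 0.0814, 0.0888 and 0.0697). Il20ra held 5 and 2 counts in KO1 and KO2, against 13, 19 and 12 in WT1, WT2 and WT3. It entered the test through its WT counts and could be tested only as lower in KO. The other partner, Il22ra1, was at 4.41 and 2.46 TPM in KO and 3.22 to 3.69 TPM in WT (adjusted p = 0.933). The chain that rose was thus expressed well above the one that fell in every library.

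**Figure D3:**
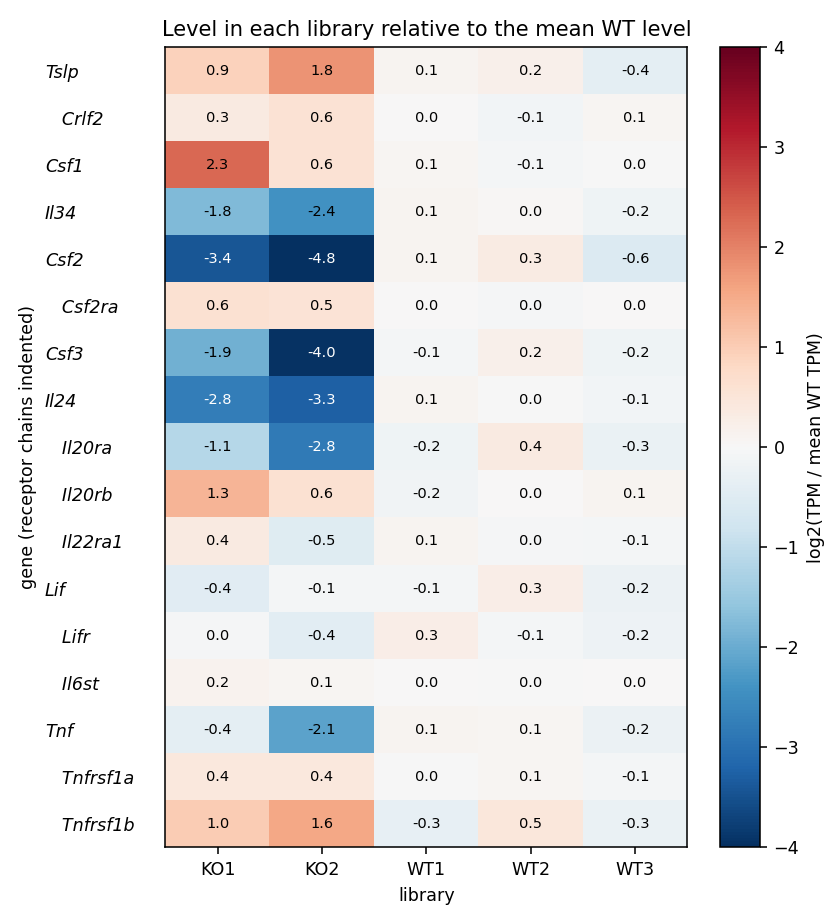
Log2 of TPM over the mean WT TPM in each library (columns) for the 8 tested cytokine genes and, indented, 9 of their receptor chains. Each cell prints its value. Colours saturate at 4 in either direction, which Csf2 in KO2 exceeds (-4.8). Il34, Csf2, Csf3, Il24, Tnf and Il20ra are blue in both KO libraries, and Tslp, Csf1, Crlf2, Csf2ra, Il20rb, Tnfrsf1a and Tnfrsf1b are red in both.

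Lif and Il6, which signal through gp130, gave no change that passed the test. Lif, named for its effect on leukaemia cells and used to maintain mouse embryonic stem cells, was at 13.6 and 17.6 TPM in KO1 and KO2, against 17.5, 22.2 and 15.9 TPM in WT1, WT2 and WT3. The groups overlapped, and the log2 change of -0.23 ± 0.18 (SE; adjusted p = 0.344) passed in none of the 16 alternatives (adjusted p 0.066 to 0.729). Il6 had 0 counts in both KO libraries and 1 count over the 3 WT libraries. A count of 0 allows up to 3 counts per library, which is 0.145 to 0.147 CPM (counts scaled to library size), so no change in Il6 was detectable at this depth. None of the receptor chains passed the test. Il6st, which encodes gp130, was at 54.3 and 52.0 TPM in KO and 48.2 to 49.2 TPM in WT (adjusted p = 0.135). Il6ra was at 14.7 and 13.3 TPM in KO and 15.7 to 15.9 TPM in WT (adjusted p = 0.21), and Lifr at 1.08 and 0.84 TPM in KO and 0.97 to 1.33 TPM in WT (adjusted p = 0.626).

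Tnf was lower in both KO libraries than in any WT library, yet its difference did not pass the test. It was at 53.1 and 15.6 TPM in KO1 and KO2, against 75.4, 73.2 and 59.5 TPM in WT1, WT2 and WT3. KO1 lay just under WT3, while KO2 was far below, so that KO1 was 3.40 times KO2. The log2 change was -0.99 ± 0.50 (SE; adjusted p = 0.163). It was -2.14 without KO1 and -0.35 without KO2, so its size depended on which KO library was kept. Over the alternatives that kept both KO libraries, the adjusted p of Tnf was 0.0823 to 0.313. Lta and Ltb, the TNF relatives on either side of Tnf on chromosome 17, were at 0.09 to 0.42 TPM in KO and 0.09 to 0.64 TPM in WT.

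Both TNF receptors rose. Tnfrsf1a, the widely expressed receptor, rose by 0.44 ± 0.07 (SE; adjusted p = 0.0097), to 135 and 136 TPM in KO1 and KO2, against 102, 108 and 95.9 TPM in the WT libraries. Tnfrsf1b rose by 1.33 ± 0.35 (adjusted p = 0.0323) at a low level, 0.64 and 0.92 TPM in KO, against 0.25, 0.43 and 0.26 TPM in WT, and was named after its values were seen. Tnfrsf1a missed the threshold with WT1 or WT3 removed (adjusted p = 0.0604 and 0.0532), as Tnfrsf1b did with KO2, WT1 or WT3 removed (adjusted p = 0.0562, 0.114 and 0.109). TNF and CSF1 are released from the membrane by proteases. Of 5 genes of this step, 1 rose (20%) and none fell, where 20.4% of all tested genes rose and as many fell. With KO1 removed 2 rose and 2 fell, with KO2 removed 2 rose and 1 fell, and with a WT library removed none passed. The one that rose was Timp3, an inhibitor of the sheddase ADAM17, by 0.86 ± 0.19 (adjusted p = 0.0198), to 133 and 196 TPM in KO, against 84.1 to 105 TPM in WT. Adam17 was at 26.0 and 32 TPM in KO and 33.2 to 35.7 TPM in WT (adjusted p = 0.165). Its partners Rhbdf2 and Rhbdf1 had log2 changes of 0.26 (adjusted p = 0.0575) and -0.11 (adjusted p = 0.332). Timp3 did not pass with WT1, WT2 or WT3 removed (adjusted p = 0.086, 0.0817 and 0.0529).

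Saa3 was close to the detection limit in both groups, with 5 and 5 counts in KO1 and KO2, against 5, 3 and 4 counts in WT1, WT2 and WT3. Its relatives Saa1 and Saa4 were no higher than 0.83 TPM in KO and 0.34 TPM in WT, and with close copies in the cluster the division of these few reads is uncertain. Other acute phase genes did change. Of 6 tested, 5 rose (83.3%) and none fell, beside 20.4% of all tested genes in each direction, with a median log2 change of 1.62. Of the 5, Serpina3n, Ptx3 and Cp had 3.79 to 10.43 counts per WT library and entered the test through their KO counts. Such genes could be tested only as higher in KO. The share, the median and the lack of falls therefore follow in part from the count filter. The sixth, the complement gene C3, was at 18.3 and 6.04 TPM in KO1 and KO2, against 20.3 to 23.5 TPM in WT, and did not pass (log2 change -0.86, adjusted p = 0.179). With KO1 removed 4 of the list rose and 1 fell, and with KO2 removed 5 rose and 1 fell. Orm1, an abundant plasma-type glycoprotein, rose by 0.79 ± 0.09 (SE; adjusted p = 0.00409), to 78.5 and 87.8 TPM in KO, against 47.0 to 50.8 TPM in WT. The iron-binding Lcn2 rose by 3.24 ± 0.58 (adjusted p = 0.0108), to 16.6 TPM in KO1 and 61.9 TPM in KO2, against 3.43 to 4.84 TPM in WT. Its log2 change was 3.88 with KO1 removed and 2.01 with KO2 removed. Serpina3n, a protease inhibitor, and Ptx3, a pentraxin, rose by 1.87 and 3.08 (adjusted p = 0.0135 and 0.0212), with 0.95 to 3.63 TPM in KO and 0.19 to 0.49 TPM in WT over both genes. Cp, which encodes ceruloplasmin, also rose, at no more than 0.28 TPM in either group. With WT1, WT2 or WT3 removed, Orm1 still passed (adjusted p = 0.0342, 0.0317 and 0.0305) and the other 4 did not, the adjusted p of Lcn2 being 0.0574, 0.0503 and 0.0544.

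Of the 17 receptor chains and binding partners together, 14 were tested, of which 5 rose (35.7%) and 1 fell (7.14%), beside 20.4% of all tested genes in each direction, with a median log2 change of 0.16. The 5 were Crlf2, Csf2ra, Il20rb, Tnfrsf1a and Tnfrsf1b. The 1 that fell was Il20ra, which entered the test only through its WT counts. Without WT1, WT2 or WT3 the number that rose was 0, 2 and 0 and the number that fell was 0 each time. Without KO1 it was 5 higher and 4 lower, and without KO2 it was 6 higher and 1 lower. These numbers, and those for the lists below, are to be read against all tested genes, of which 7.6 to 8.94% passed in either single direction without a WT library and 29.3 to 30.9% without a KO library. Where KO and WT were each given their own spread, 1 rose and 0 fell.

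Downstream of the receptors, 5 of 16 JAK-STAT genes rose (31.2%) and 2 fell (12.5%), beside 20.4% of all tested genes in each direction, with a median log2 change of 0.13. Socs2, a feedback inhibitor induced by STAT5, rose by 3.14 ± 0.27 (SE; adjusted p = 0.00253), to 7.27 and 5.70 TPM in KO, against 0.89, 0.50 and 1.16 TPM in WT. The kinase Tyk2 rose by 0.89 ± 0.08 (adjusted p = 0.00253), to 29.1 and 26.2 TPM, against 14.1 to 15.2 TPM in WT. Both passed in all 16 alternatives. Pias3, an inhibitor of STAT3, and Ptpn6, a phosphatase, rose by 0.69 and 0.49 (adjusted p = 0.00669 and 0.0166), and Ptpn6 missed the threshold with WT1, WT2 or WT3 removed (adjusted p = 0.0607, 0.0792 and 0.0765). Socs3, the usual feedback gene of gp130 signalling, was at 27.6 and 14.9 TPM in KO and 20.8 to 24.6 TPM in WT (adjusted p = 0.79), and was named after its values were seen. Cish and Socs1, also feedback inhibitors, did not pass either (adjusted p = 0.485 and 0.612). Stat5a was the other gene that rose (adjusted p = 0.0341), and Ptpn2 and Ptpn11 were those that fell (adjusted p = 0.0359 and 0.0405). The 5 higher became 3 without each of WT1, WT2 and WT3, 5 without KO1 and 8 without KO2, and the 2 lower became 0, 0, 0, 6 and 2.

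Among 14 transcription factors known to act on cytokine promoters, 1 rose (7.14%) and 2 fell (14.3%), beside 20.4% of all tested genes in each direction, with a median log2 change of -0.03. The AP-1 subunit Fosl2 rose by 0.55 ± 0.08 (SE; adjusted p = 0.00725). Nfkbiz, an NF-kappaB cofactor needed for secondary response genes, fell to 72.2 and 109 TPM in KO, against 165 to 202 TPM in WT (log2 change -1.0 ± 0.20, adjusted p = 0.0145). The NF-kappaB subunit Rel fell by 0.53 ± 0.16 (adjusted p = 0.0468). With WT1, WT2 or WT3 removed Rel missed the threshold (adjusted p = 0.149, 0.118 and 0.119), as did Nfkbiz with WT1 or WT2 removed (adjusted p = 0.063 and 0.061) and Fosl2 with WT1 removed (adjusted p = 0.0513). Fosl1, another AP-1 subunit, was at 7.41 and 58.1 TPM in KO1 and KO2, against 173, 181 and 188 TPM in WT, and did not pass (log2 change -2.44 ± 0.80, adjusted p = 0.0591). Fosl1 passed in 6 of 16 alternatives, among them DESeq2 and limma-voom (adjusted p = 0.0259 for both) and a separate spread per group (adjusted p = 0.0096). Its log2 change was -1.63 with KO1 removed and -4.57 with KO2 removed, and without a WT library its adjusted p was 0.137 to 0.143. The 2 lower became 0, 0 and 1 without WT1, WT2 and WT3 and 5 without KO1 or KO2, and the 1 higher became 0, 1, 1, 4 and 5.

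RNA-binding proteins that act on mRNA decay or stability, not all of them through AU-rich elements, were described because of the elements shown above. Of 9, none rose and 3 fell (33.3%), beside 20.4% of all tested genes in each direction, with a median log2 change of -0.16. Hnrnpd, which encodes the ARE-binding protein AUF1, fell by 0.71 ± 0.07 (SE; adjusted p = 0.00264), to 20.2 and 20.7 TPM in KO, against 34.2 to 35.6 TPM in WT, and passed in all 16 alternatives. Elavl1, which encodes the stabilising protein HuR, fell by 0.34 ± 0.08 (adjusted p = 0.0243), and Rc3h1, a stem-loop-binding repressor, by 0.30 ± 0.08 (adjusted p = 0.0328). Zfp36, which encodes the decay factor tristetraprolin, was at 249 and 253 TPM in KO1 and KO2, against 476, 453 and 257 TPM in WT1, WT2 and WT3 (adjusted p = 0.121). Elavl1 and Rc3h1 missed the threshold with WT1, WT2 or WT3 removed (adjusted p 0.0792 to 0.125), and Zfp36 passed with WT3 removed (adjusted p = 0.0281). Those that fell numbered 1, 1 and 2 without WT1, WT2 and WT3 and 5 without KO1 or KO2, and 1 rose without KO2.

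Of 34 other interleukins, haematopoietic factors and TNF superfamily ligands, 24 were in the table and 11 had enough counts to test. Of these, 3 rose (27.3%) and 1 fell (9.09%), beside 20.4% of all tested genes in each direction, with a median log2 change of 0.43. The IL-23 subunit Il23a was at 17.95 and 39.6 TPM in KO1 and KO2, against 18.2 to 21.6 TPM in WT (adjusted p = 0.211). The gp130 cytokine Clcf1 was at 10.2 and 20.8 TPM in KO, against 22.9 to 26.9 TPM in WT (adjusted p = 0.137). Flt3l, a growth factor for dendritic cell precursors, rose by 1.41 ± 0.16 (SE; adjusted p = 0.00385), to 25.6 and 20.2 TPM in KO, against 8.06 to 8.86 TPM in WT. Tnfsf15 fell by 1.99 ± 0.17 on the log2 scale (adjusted p = 0.00232), to 1.04 and 1.26 TPM, against 4.26 to 5.15 TPM in WT. Both passed in all 16 alternatives. The lymphocyte growth factor Il7 and the gp130 cytokine Ctf1 rose by 1.39 and 1.35 (adjusted p = 0.0102 and 0.0114), and both missed the threshold with WT1 or WT3 removed (adjusted p 0.053 to 0.0573). Without WT1, WT2 and WT3 the number that rose was 1, 3 and 1, and it was 6 without KO1 and 3 without KO2.

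**Figure D4:**
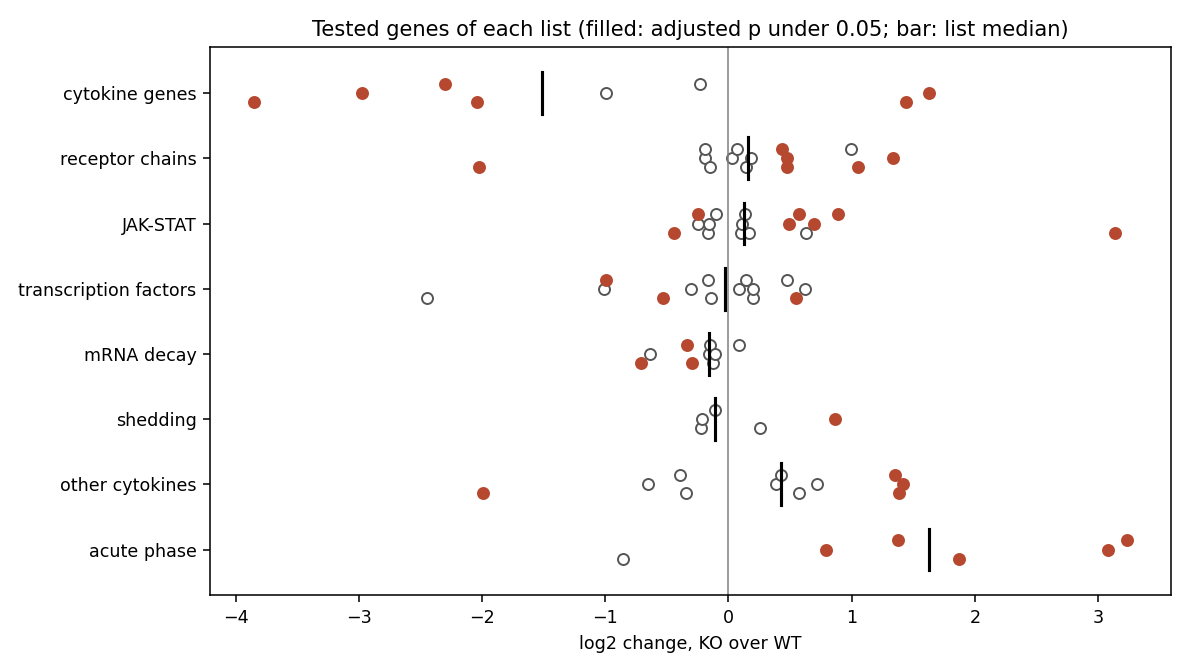
Log2 change (KO over WT) of every tested gene of the cytokine group and of the 7 related lists (points, filled where edgeR's adjusted p was under 0.05; bars, list medians; vertical scatter has no meaning). The cytokine genes spread from -3.85 to 1.63, further than the receptor, JAK-STAT (Socs2 apart) and mRNA decay genes.

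Markers of other cell types that make or receive these factors were followed in the same libraries. Of the fibroblast markers given beside Csf1, 4 of 9 tested rose (44.4%) and none fell, beside 20.4% of all tested genes in each direction. Of the 4, Postn and Dcn had 1 to 5 counts per WT library and entered the test through their KO counts. They could be tested only as higher in KO, so this share follows in part from the count filter. Postn, which encodes the matrix protein periostin, changed most, with 10.5 and 4.29 TPM in KO1 and KO2, against 0.03 to 0.13 TPM in WT (log2 change 6.87 ± 0.65, SE, adjusted p = 0.00283). Fbln1 and Sparc, which made up most of the sum, did not pass (adjusted p = 0.164 and 0.198), and Col1a1 was at 6.18 and 1.38 TPM in KO1 and KO2, against 0.05 to 0.53 TPM in WT. This sum was higher in KO1 than in KO2, as were Csf1, Csf2, Csf3, Il24, Il34 and Tnf, while Tslp and Lif were higher in KO2. The part of the fibroblast markers in those values was not tested. The 12 macrophage markers summed to 72.3 and 62 TPM in KO and 48.2 to 57.0 TPM in WT, of which Cd68 alone gave 65.4 and 56.3 TPM in KO and 41.2 to 47.0 TPM in WT. Cd68 was the 1 that rose of 5 tested (20%), and none fell. Other markers of this list went either way. Lyz2 was at 0 and 0.28 TPM in KO1 and KO2, against 2.14, 2.64 and 0.19 TPM in WT1, WT2 and WT3 (adjusted p = 0.106). Cd14 was at 5.25 and 3.87 TPM in KO and 5.47 to 6.67 TPM in WT (adjusted p = 0.202). Too low to test were Mrc1, at most 0.02 TPM in KO and 0.11 to 0.18 TPM in WT, and Aif1, at 0.66 and 0.21 TPM in KO and at most 0.13 TPM in WT. Adgre1 and Tyrobp were at 0 in both KO libraries and at no more than 0.07 and 0.72 TPM in WT. Ptprc and Csf1r stayed at 0.59 TPM or lower in every library. Langerhans and dendritic cell markers summed to 25.4 and 20.6 TPM in KO and 1.47 to 9.91 TPM in WT, nearly all from Cd74 and H2-Ab1, while Itgax was at 0 in both KO libraries. H2-Ab1 was at 17.8 and 7.5 TPM in KO1 and KO2, against 0.89 to 1.16 TPM in WT (adjusted p = 0.00419). It was the 1 that rose of 3 tested (33.3%), and none fell. Cd74 did not pass (adjusted p = 0.463). H2-Aa was at 0 in both KO libraries and at 0.09, 0.53 and 0 TPM in WT1, WT2 and WT3, too low to test. The Langerhans marker Cd207 was not among the deposited genes. The T cell marker Thy1, also in the fibroblast list, was at 17.1 and 6.64 TPM in KO1 and KO2, against 1.18 to 2.25 TPM in WT (adjusted p = 0.0113). It was the 1 that rose of 2 tested T cell markers (50%). Cd247 did not pass (adjusted p = 0.271), and the other T cell markers stayed at 0.29 TPM or lower. Mast cell markers summed to at most 0.23 TPM in KO and 0.78 TPM in WT, and neutrophil markers to 2.14 to 3.12 TPM in KO and 2.23 to 3.29 TPM in WT. Endothelial markers summed to 2.45 to 2.52 TPM in KO and 2.48 to 2.74 TPM in WT, and melanocyte markers to 7.82 and 10.6 TPM in KO and 5.76 to 6.94 TPM in WT. Among 3 tested endothelial markers Tie1 rose and Kdr fell (33.3% each), and among 6 melanocyte markers Mitf rose (16.7%). All these shares stand beside 20.4% of all tested genes in each direction. Among 8 basal keratinocyte markers 3 rose (Krt15, Itgb4 and Dst; 37.5%), 2 fell (Trp63 and Itga6; 25%) and 3 did not pass, read against the same 20.4% in each direction.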

How the data were processed

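The deposited file gives, for every gene and library, an expected count, a TPM and an FPKM value. The expected counts come from RSEM 1.3.1 on GRCm38.p6, per the submitters' processing notes, which shares reads that match several genes or transcripts, so 32.1 to 34.0% of values are not whole. TPM, per the file headers a deposited column of each library, was used for levels. The aligner and the use of strand were not given in the sources. The 5 FPKM columns were left unused.

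Counts were rounded and fitted over all 12957 genes that passed filterByExpr (by group) with the quasi-likelihood test of edgeR 4.0.16 in R 4.3.3, with TMM factors of 0.988 to 1.02, 1 spread shared by both groups, a two-sided p, Benjamini-Hochberg adjustment and a threshold of 0.05. SEs were derived from the test statistic. The test was checked on simulated counts with 1 spread for both groups, so the check does not cover the unequal spread of KO and WT. The alternatives were 2 other scalings, DESeq2 1.42.0, limma-voom (limma 3.58.1) with a shared and with a separate spread, no count filter, a stricter one (group mean of at least 10, overall mean of at least 50), limma on log2(TPM + 1), on log2(TPM + 0.1) and on genes with a mean TPM of at least 1, the replicate number as a block, and each library removed in turn. A lone KO library takes its spread from the WT libraries, so p-values and calls without a KO library rest on the WT spread alone. A separate spread was listed because the KO libraries were known to vary more.

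The 10 genes, the lists and the tests were chosen with earlier results of these data known. Named genes are the 10, Angptl4, the 5 receptor genes and up to 4 genes of each other pathway list with the smallest p, and Ptprc, Csf1r, Krt5, Krt14 and the 2 most abundant markers of each cell type, of which not all are given. The remaining receptor genes, the other JAK-STAT genes given (Socs1, Socs3, Cish, Stat5a, Ptpn2 and Ptpn11), Cp, C3, Il23a, Clcf1, Postn, gene neighbours and relatives and other markers were named after their values were seen. Promoters are from RefSeq on GRCm38.p6 and 3′ UTRs from GENCODE M21. In each library 1 CPM stood for 20.4 to 20.7 counts, and limits from counts cover counting error only. Within a group, no pair of libraries agreed within counting noise (chi-square per degree of freedom 107 for KO, 3.41 to 6.35 among WT).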

Additional observations from a re-analysis of the deposited data

How the results depend on the processing

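Over the 16 alternatives Il24 and Il34 kept their calls in all 16, Csf2 in 15, Tslp and Csf3 in 12 and Csf1 in 8, and Lif passed in 0. Tnf passed only without a KO library, where the spread comes from the WT libraries alone. The sign of the change held in every alternative for these 8 genes and for the pathway genes taken by their p. The number of the 10 genes that rose was 1 in place of 2 with limma-voom, with a separate spread, with the replicate block and in the 3 TPM fits. With 1 library left out, 0 to 2 rose and 3 to 5 fell. Over all genes, 5286 calls became 3192 with a separate spread and 1957 to 8068 with 1 library left out, the higher numbers coming where 1 KO library remained. Why calls were lost was not tested. The replicate numbers are shared by 2 pairs, whose deviations from their group means correlated at 0.00714 and 0.0676, and nothing says that a number marks a shared mouse or day. With the replicate block 1598 genes passed, and of the 6 cytokine calls those of Csf1 (adjusted p = 0.0763) and Csf3 (adjusted p = 0.0506) were lost. Depth limits Il6 and Saa3, which could not be tested, and the KO level of Csf2. Where none of the mRNA decay genes rose and none of the shedding or acute phase genes fell by edgeR, the counts were also 0 at an unadjusted p under 0.05, with DESeq2 and with limma-voom, but not with a KO library removed. Then 1 mRNA decay gene rose without KO2, 2 and 1 shedding genes fell without KO1 and KO2, and 1 acute phase gene fell in each case.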
